A study of Saccharomyces cerevisiae with 7 samples.

Results

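A group of 9 genes of the budding yeast plasma membrane and vacuole were followed through the binding sites of 5 Puf proteins: PMA1 and PMA2, which encode proton pumps, PMP1, PMP2 and PMP3, SNA2, SNA3 and SNA4, and ZEO1. They were taken by gene name from every list of called sites, which gave 76 of the 10580 sites in all, on 6 of the 9 genes. Puf2 held 34 of these sites, Puf5 held 18, Puf1 held 14, Puf4 held 8 and Puf6 held 2. PMA1 alone held 49 of the 76. In the deposited lists the genes appear by locus tag: YGL008C (PMA1), YPL036W (PMA2), YCR024C-A (PMP1), YEL017C-A (PMP2), YDR276C (PMP3), YDR525W-A (SNA2), YJL151C (SNA3), YDL123W (SNA4) and YOL109W (ZEO1).

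Each site list came from 1 CLIP library (crosslinking of protein to RNA, immunoprecipitation and sequencing) of whole cells. Puf1, Puf2, Puf4, Puf5 or Puf6 carried a TAP tag in it, in MATa strains with the markers his3Δ1, leu2Δ0, met15Δ0 and ura3Δ0. Cultures grew at 30 °C in synthetic medium with 200 µM 4-thiouracil, a uridine analogue, and received 4 doses of 365 nm light at 150 mJ/cm2. Levels of mRNA came from polyA RNA of 2 samples of BY4742 with PUF3 replaced by a KAN marker (puf3Δ), given as 1 RPKM column (reads scaled to gene length and to depth). Site strength is given in RPM, the reads at a site scaled to library depth. No site value has a replicate, and no untagged library was used here, so differences between libraries are described without a test.

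Puf proteins bind short elements of mRNA, mostly in 3' untranslated regions (UTRs), and most of those studied in yeast change the stability, translation or place of their targets. Pma1, an essential ATPase of the P type, pumps protons out of the cell and makes the gradient that drives nutrient uptake. Pmp1 and Pmp2 are near-identical, very small membrane proteins that bind Pma1 and regulate it, and Pmp3, also called Sna1, is a small hydrophobic protein that affects membrane potential. Sna2, Sna3 and Sna4 resemble Pmp3, and Zeo1 is a peripheral protein of the plasma membrane linked to cell integrity signalling.

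The mRNAs spanned the range of abundance. PMA1 stood at 5265 RPKM, rank 12 of the 5521 protein-coding genes at 1 RPKM or more, and ZEO1 at 2113 RPKM, rank 65. PMP2 (776 RPKM), PMP3 (744 RPKM) and PMP1 (601 RPKM) lay close together at ranks 250, 259 and 319. SNA3 (146 RPKM, rank 1268) and SNA4 (46.4 RPKM, rank 3302) were in the middle, while PMA2 (17.1 RPKM, rank 4791) and SNA2 (8.88 RPKM, rank 5121) were near the bottom. PMA2, SNA3 and SNA4 had no site under their names in any library. The threshold of the site caller is unknown here, so a missing site is not a measured level of 0.

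Puf1 sites were called on 4 of the 9 genes (PMA1, PMP2, SNA2 and ZEO1), against 5.81% of the 5521 genes. Puf2 sites were on 5 (PMA1, PMP1, PMP2, PMP3 and ZEO1), against 11.7%. In Puf5 they were also on 5 (PMA1, PMP2, PMP3, SNA2 and ZEO1), against 25%. Puf4 sites were on 2 (PMA1 and PMP3), against 19.7%, and Puf6 sites on PMA1 alone, against 6.34%. Abundant mRNAs were called more often throughout: among the 388 genes of at least 500 RPKM, a limit set after the data were seen, the share was 71.6% in Puf4, 67.5% in Puf5, 58.8% in Puf2, 35.1% in Puf1 and 25.8% in Puf6. The 5 members above that limit (PMA1, ZEO1, PMP2, PMP3 and PMP1) were called in 3 cases by Puf1, 5 by Puf2, 2 by Puf4, 4 by Puf5 and 1 by Puf6. Counting only sites in 3' UTRs, Puf1 was on 4 members (2.7% of all genes), Puf2 on 5 (4.64%), Puf5 on 4 (17.3%), Puf4 on 1 (8.35%) and Puf6 on 0 (1.49%). The Puf2 sites under the name of PMP1 also overlapped another reading frame, YCR024C-B.

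**Figure D1:**
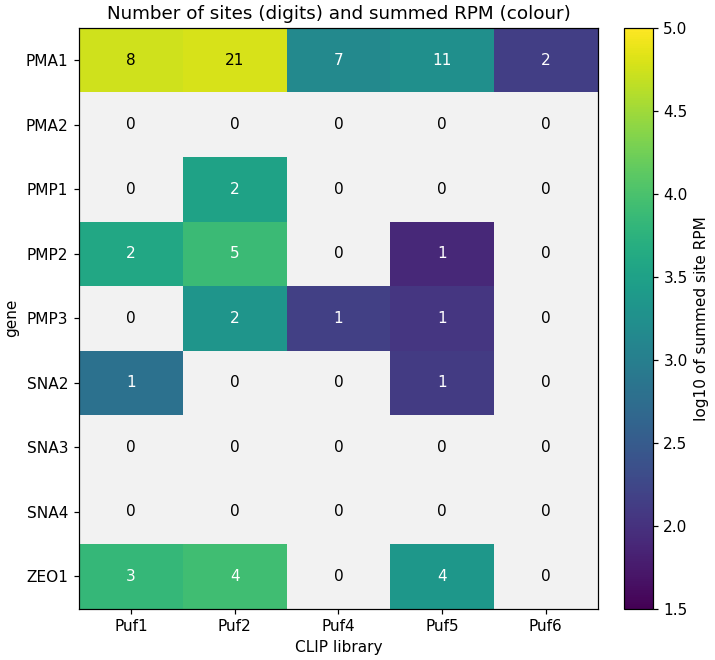
Number of called sites (digits) and log10 of their summed RPM (colour) for the 9 genes (rows) in the 5 CLIP libraries (columns). PMA1 is the 1 gene with sites in every library, from 2 in Puf6 to 21 in Puf2, and the rows of PMA2, SNA3 and SNA4 are at 0 throughout.

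PMA1 lies on the minus strand of chromosome VII, with its coding sequence at 479910 to 482666 (sacCer3). Its summed site RPM was 61037 in Puf2, 56595 in Puf1, 1776 in Puf5, 1396 in Puf4 and 141 in Puf6. In Puf1 and Puf2 this was 6.37% and 7.28% of the RPM of all called sites, whereas in Puf4, Puf5 and Puf6 it was 0.155%, 0.211% and 0.0336%. In Puf6, sites in mRNA held only 10.8% of the RPM, and of that RPM alone the PMA1 share was 0.310%, above the 0.291% of Puf5 and the 0.184% of Puf4. The strongest PMA1 site ranked first among 324 genes in Puf1 and among 652 genes in Puf2. It ranked 278 of 1096 in Puf4, 169 of 1392 in Puf5 and 34 of 357 in Puf6, so the pump mRNA led both of the first libraries and none of the others. The lead in Puf1 was narrow, with 28212 RPM against 26925 RPM for TDH3, the next gene. In Puf2 it was 14973 RPM against 8048 RPM for LSP1.

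The number of PMA1 sites was also the highest of any gene in Puf1 (8 sites) and Puf2 (21 sites), where a gene with a site had a median of 1. In Puf5 the 11 PMA1 sites were second to the 13 of TOS1, and in Puf4 and Puf6 the 7 and 2 sites ranked 14 and 13. Sites covered 613 nt of PMA1 in Puf2, 296 nt in Puf5, 194 nt in Puf4, 176 nt in Puf1 and 53 nt in Puf6. The mean per PMA1 site was highest in Puf1, at 7074 RPM, followed by Puf2 with 2907 RPM, Puf4 with 199 RPM, Puf5 with 161 RPM and Puf6 with 70.5 RPM. Medians over all mRNA sites stood in the same order. They were 1228 RPM in Puf1, 204 RPM in Puf2, 126 RPM in Puf4, 119 RPM in Puf5 and 40.5 RPM in Puf6. The Puf2 mean includes 10 coding sites, a class Puf1 lacked on PMA1. Sites of Puf1 and Puf2 overlapped by at least 1 nt at 8 positions, of which 5 had the higher RPM in Puf2 and 3 in Puf1.

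The parts of the PMA1 mRNA that held sites differed between libraries. Puf1 had 6 PMA1 sites in the 3' UTR, 2 in the 5' UTR and 0 in the coding sequence, while 45.1% of all Puf1 sites in mRNA were coding. Puf2 had 8 in the 3' UTR, 3 in the 5' UTR and 10 in the coding sequence, yet those 10 held 1.76% of the summed PMA1 RPM, against 76.7% in the 3' UTR and 21.5% in the 5' UTR. Puf5 had 6, 2 and 3, with 73.6%, 13.5% and 13.0% of the RPM. Puf4 had 1 site in the 3' UTR, with 54.4% of the RPM, and 6 in the coding sequence, and both Puf6 sites were coding. Puf2 sites were spread along the whole coding sequence, and the UTRs carried most of the RPM in Puf1, Puf2, Puf5 and, at 54.4%, Puf4.

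**Figure D2:**
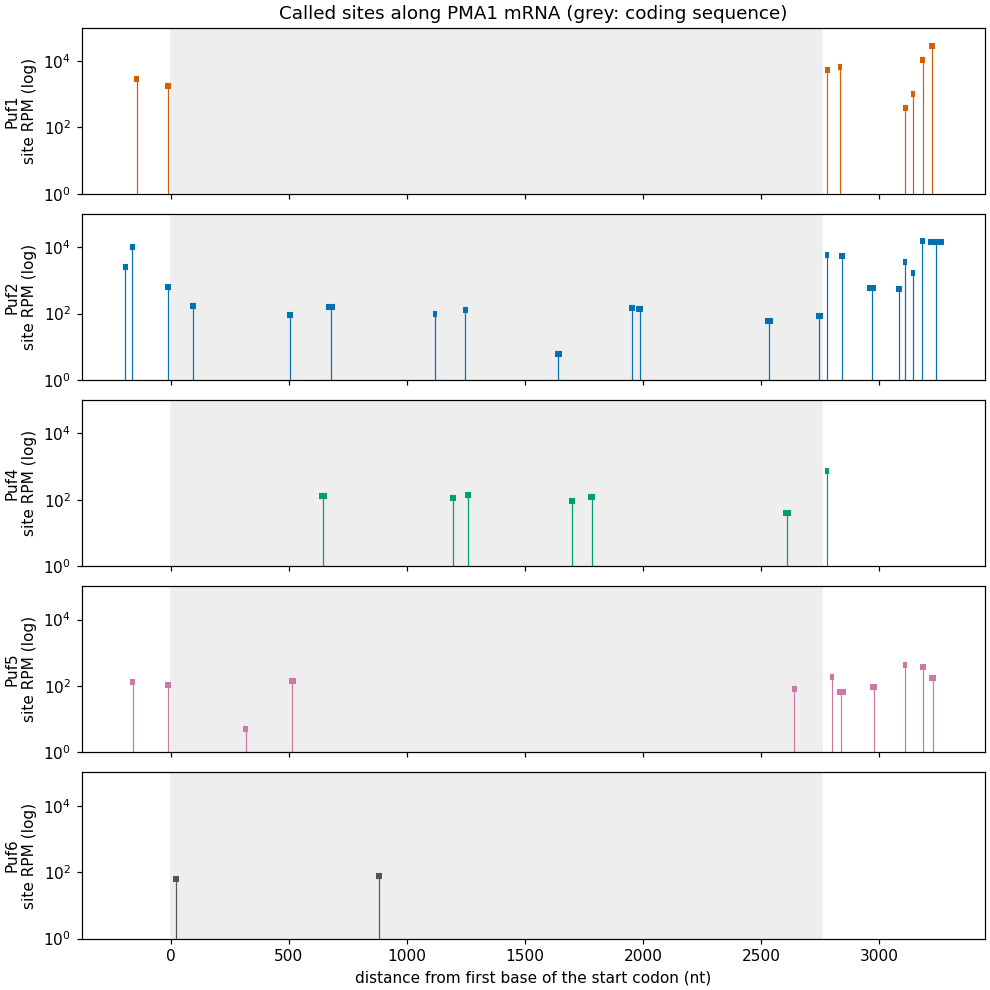
Called sites along PMA1 mRNA by distance from the start codon in nt, 1 panel per library, with each site drawn as a block at its RPM (log axis) over its extent and a thin line to its centre. Grey marks the coding sequence, where Puf1 has 0 sites and Puf2 has 10, and in Puf2 the sites at both ends stand above those within it.

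The distal part of the PMA1 3' UTR held the strongest sites. Between 450 and 520 nt past the stop codon (479390 to 479460), Puf1 had 28212 RPM, Puf2 had 14532 RPM and Puf5 had 170 RPM. Between 415 and 441 nt (479469 to 479495), Puf2 had its highest PMA1 value, 14973 RPM, beside 10440.4 RPM in Puf1 and 364 RPM in Puf5. At 344 to 365 nt (479545 to 479566), Puf2 had 3472 RPM, Puf5 had its own highest value, 427 RPM, and Puf1 had its lowest, 379 RPM. The order of the positions in Puf5 was therefore not that of Puf1. The site at 378 to 396 nt (479514 to 479532) was called in Puf1 (1019.7 RPM) and Puf2 (1650.3 RPM). Puf2 alone had 565 RPM at 479568 to 479596, and it shared the position at 479675 to 479717 (592 RPM) with Puf5 (93.2 RPM).

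The proximal part had 2 positions shared by several libraries. At 64 to 103 nt past the stop codon (479807 to 479846), Puf1 had 6610.2 RPM, Puf2 had 5391 RPM and Puf5 had 63.9 RPM. At 16 to 54 nt (479856 to 479894), 4 libraries had a site, the most at any position of these genes: Puf2 had 5663 RPM, Puf1 had 5311 RPM, Puf4 had 759 RPM and Puf5 had 189 RPM. Puf2 and Puf4 had the same bounds there (479877 to 479894), and the Puf1 site reached 1 nt further from the stop codon. The Puf5 site (479856 to 479876) lay beside them, further from the stop codon, and overlapped that of Puf1 by 1 nt. Puf4 and Puf5 thus shared no PMA1 position by direct overlap.

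The 5' UTR of PMA1 was called in 3 libraries. At -172 to -133 nt from the first base of the start codon (482799 to 482838), Puf2 had 9943 RPM, Puf1 had 2857 RPM and Puf5 had 132 RPM. The Puf1 site (482799 to 482821) and the Puf2 site (482818 to 482838) overlapped only at their edges. The Puf5 site (482816 to 482838) lay over that of Puf2. The Puf2 value was the highest of its 93 sites of that class. Puf2 added a site further upstream, at 482845 to 482869, with 2545 RPM. Another position reached the start codon itself (482663 to 482689), with 1765 RPM in Puf1, 636 RPM in Puf2 and 107 RPM in Puf5, and all 3 sites ended at the same base on the upstream side.

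Coding sites of PMA1 were weaker than all of its UTR sites in Puf2 and Puf4, overlapped them in strength in Puf5 and were its only sites in Puf6. In Puf2 the lowest was 5.91 RPM, the median 111 RPM and the highest 173 RPM. In Puf4 they ran from 41.1 to 138 RPM with a median of 118 RPM, above the median of 102 RPM over all coding sites there, whereas in Puf2 the median over all was 137 RPM. The 3 sites of Puf5 had 5.08, 81.9 and 144 RPM, and those of Puf6 had 62.5 RPM (482629 to 482657, within the first codons) and 78.5 RPM (481772 to 481795). Both Puf6 values were above the coding median of that library, 38.3 RPM, at ranks 78 and 29 of 310, and the highest Puf5 value ranked 131 of 709. Of the 18 positions with coding sites, 3 were called in more than 1 library: 481392 to 481429 and 481971 to 482038 by Puf2 and Puf4, and 482134 to 482175 by Puf2 and Puf5. At 481971 to 482038, the Puf2 site (481971 to 482006) and the Puf4 site (482005 to 482038) met only at their edges. The Puf6 sites overlapped none.

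In Puf2 and Puf4, many site values lay in 1 of 2 bands, whose bounds were set after the values were seen. In Puf2, 55.2% of 601 coding sites lay between 64 and 256 RPM, and 49.2% of 331 sites in 3' UTRs lay between 512 and 1024 RPM. In Puf4 the shares were 55.8% of 1170 and 37.1% of 536. Of the PMA1 coding sites, 8 of 10 in Puf2 and 5 of 6 in Puf4 were in the lower band, the same range as most coding sites of each library. The other libraries did not follow this pattern: 78.3% of Puf1 sites in 3' UTRs were above both bands, 63.4% of those of Puf5 were in the lower band, and 0% of those of Puf6 were in the upper band. The Puf4 site of PMA1 in the 3' UTR lay in the upper band, at rank 234 of 536. In Puf2, 6 of the 8 PMA1 sites in the 3' UTR were at 1024 RPM or more, where 15.1% of all its 3' UTR sites were.

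When divided by mRNA level and ranked over genes of all levels, the PMA1 values stood out less. The strongest site divided by RPKM was 5.36 in Puf1, where genes with a site had a median of 3.07, and PMA1 ranked 113 of 321. In Puf2 the ratio was 2.84 against a median of 1.13, rank 194 of 648. It was 0.144 against 1.16 in Puf4 (rank 891 of 1089), 0.0811 against 1.18 in Puf5 (rank 1313 of 1378) and 0.0149 against 0.228 in Puf6 (rank 319 of 350). PMA1 was above the median in Puf1 and Puf2 and far below it in the other 3 libraries. Scarce mRNAs enter these medians and ranks only when a site was strong enough to be called, so they do not compare PMA1 with genes of like level. Near PMA1 in RPKM, HOR7 (5220 RPKM) had 16522 RPM in Puf1 and 506 RPM in Puf2. PGK1 (5285 RPKM) had 2339 and 234 RPM, and RPL41B (5212 RPKM) had 35.0 and 226 RPM. All were below PMA1 in both libraries. The RPKM comes from the puf3Δ strain, BY4742, not from the tagged strains.

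**Figure D3:**
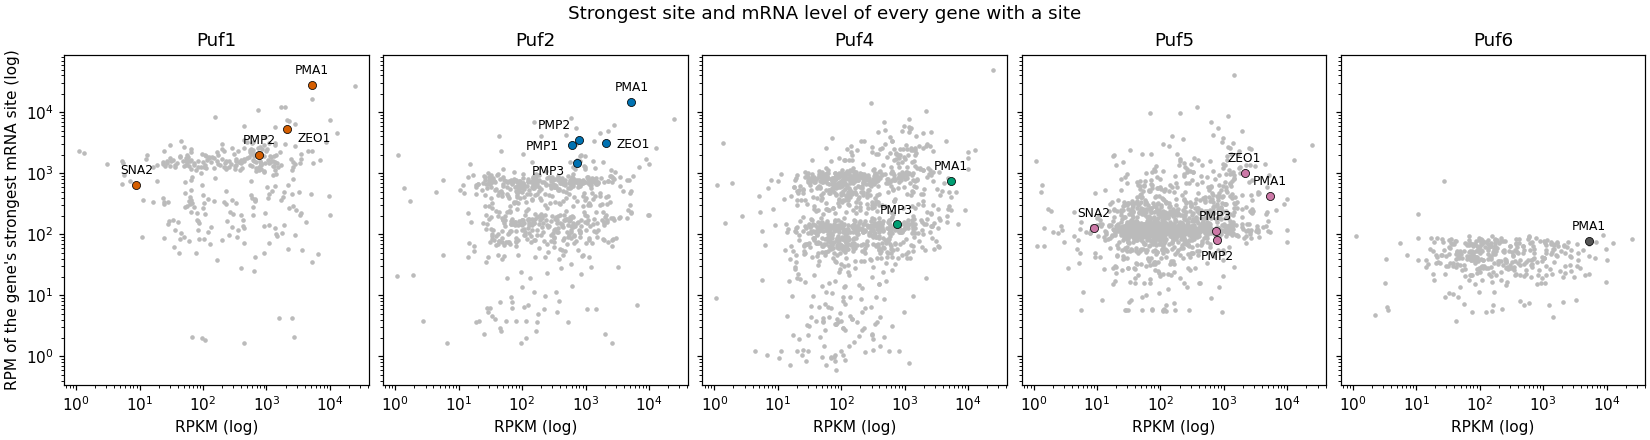
RPM of the strongest mRNA site of each gene (log axis) against its RPKM (log axis) in the 5 libraries, with members in colour and all other genes with a site in grey. PMA1, at 5265 RPKM, is the highest point in Puf1 and Puf2, whereas in Puf6 at 78.5 RPM it lies within the range of genes of all levels.

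PMA2, the rarely used second pump gene (chromosome XVI, 482843 to 485686), is close to PMA1 in its coding sequence. It had 0 sites in all 5 libraries, including Puf2 with its 10 coding sites on PMA1. The treatment of reads that fit both genes is unknown here. The 3 PMA1 coding sites under 60 RPM (5.91 RPM in Puf2, 41.1 RPM in Puf4 and 5.08 RPM in Puf5) were whole multiples of the step that fits most low values of their library, within 0.0055 RPM. So were 58.5% of all mRNA sites under 60 RPM in Puf2, 75.7% in Puf4 and 65.3% in Puf5. The step was fitted to these same values, so this does not show how reads that fit both genes were treated.

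ZEO1 (chromosome XV, plus strand, 110297 to 110638) came after PMA1 alone in Puf1 by its strongest site, after PMA1 and PMP2 in Puf2, and before all other members in Puf5. Its strongest site had 5386 RPM in Puf1, 3085 RPM in Puf2 and 1014 RPM in Puf5, with 0 sites in Puf4 and Puf6. These ranked 15 of 324, 14 of 652 and 72 of 1392 genes, and in Puf5 ZEO1 also exceeded PMA1 in summed RPM (2263 RPM). All 3 lay 78 to 185 nt past the stop codon (110716 to 110823), where the Puf2 site was 108 nt long and contained the others. ZEO1 had 4 positions, and each was called in at least 2 libraries.

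The remaining ZEO1 positions differed in their order between libraries. Nearer the stop codon, at 36 to 64 nt (110674 to 110702), Puf2 had 1486 RPM, Puf5 had 885 RPM and Puf1 had 105 RPM. A site over the stop codon (110622 to 110646) was called in Puf2 (1768 RPM) and Puf5 (351 RPM) and classed as coding. At the start codon (110280 to 110300), Puf2 had 2008 RPM, Puf1 had 1313 RPM and Puf5 had 11.3 RPM. Puf5 was thus weak at the 5' end of ZEO1 and closer to Puf2 in the 3' UTR.

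PMP2 (chromosome V, minus strand, 122798 to 122929) had 5 sites in Puf2, 2 in Puf1 and 1 in Puf5. The most distal, 322 to 350 nt past the stop codon (122448 to 122476), was called in all 3, with 2017 RPM in Puf1, 1523 RPM in Puf2 and 79.1 RPM in Puf5. Puf1 and Puf2 had the same bounds there and Puf5 differed by 1 nt. At 115 to 176 nt (122622 to 122683), Puf2 had 3553 RPM, rank 12 of 652 genes, and Puf1 had 1958 RPM. Puf2 alone had 658 RPM nearer the stop codon (122700 to 122718) and 1546 and 360 RPM in the coding sequence. The first of these coding sites ranked among the 8 of 601 coding sites in Puf2 at 1024 RPM or more.

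PMP1 (chromosome III, minus strand, 162945 to 163067) had sites under its own name in Puf2 alone, with 2862 RPM at 63 to 82 nt past the stop codon (162863 to 162882) and 444 RPM at 308 to 347 nt (162598 to 162637). A short open reading frame, YCR024C-B (162599 to 162865), lies 80 nt downstream on the same strand, and 9 further sites within 500 nt of PMP1 carried its name. The strongest of these spanned the PMP1 start codon (163065 to 163085), with the same bounds in Puf1 (3021 RPM) and Puf2 (4028 RPM), and was classed as 5' UTR of YCR024C-B. No other of these sites overlapped the annotated PMP1 gene: those of Puf4 and Puf5 lay upstream or downstream of it. Both sites that bore the name of PMP1 also overlapped YCR024C-B, the weaker at its downstream end and the stronger at its upstream end. The Puf2 site at the PMP1 start codon exceeded both, and which mRNA any of these reads came from was not tested.

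PMP3 (chromosome IV, minus strand, 1013476 to 1013643) had 1481 RPM at 182 to 201 nt past the stop codon in Puf2 (1013275 to 1013294), rank 32 of 652 genes. A second position, at 66 to 96 nt (1013380 to 1013410), was called in Puf2 (662 RPM) and Puf5 (114 RPM). Puf4 had a coding site of 145 RPM (1013488 to 1013515). Puf1 and Puf6 had none.

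SNA2 (chromosome IV, plus strand, 1490596 to 1490835) was the scarcest mRNA of the group and still had 2 sites. Puf1 had 643 RPM at 39 to 62 nt past the stop codon (1490874 to 1490897), and Puf5 had 127 RPM in the coding sequence (1490694 to 1490715). The ratios of RPM to RPKM were 72.4 (rank 15 of 321) and 14.3 (rank 57 of 1378). By RPM itself they were ordinary, at gene ranks 206 of 324 and 683 of 1392. No position of SNA2 was shared.

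**Figure D4:**
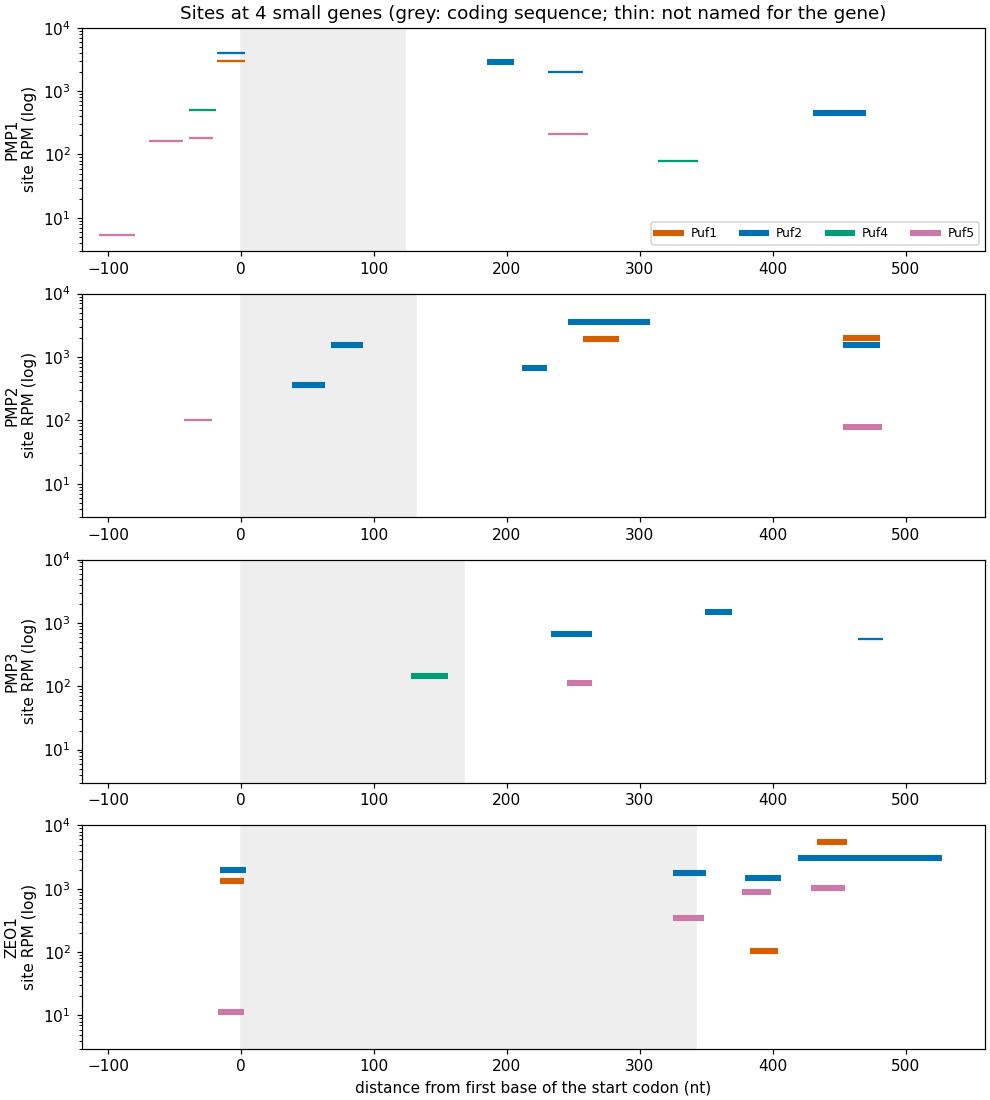
Sites at PMP1, PMP2, PMP3 and ZEO1 by distance from the start codon in nt (grey: coding sequence), with RPM on a log axis and 1 colour per library. Thick lines are sites named for the gene and thin lines are other sites within 500 nt on the same strand, which at PMP1 number 9 and include the Puf1 and Puf2 sites over the start codon.

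Sites over a start codon recurred in the group, a feature noticed in these values. In Puf1 and Puf2 they were found at 3 members each (PMA1, PMP1 by position, and ZEO1) and in Puf5 at 2 (PMA1 and ZEO1), while 0.272%, 0.398% and 0.38% of all 5521 genes had such a site there. Puf4 and Puf6 had none at these genes, against 0.471% and 0.109%. Most of each member site lay upstream, and its downstream end was 0 to 3 nt from the first base of the codon. The shares over all genes take no account of mRNA level, and these members are abundant, from PMP1 at 601 RPKM to PMA1 at 5265 RPKM. The labels do not say how positions are counted. If the first base of a chromosome is 0, the Puf2 site of PMA1 (482666 to 482689) lies just outside the codon and the other 7 still touch it.

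Sites of Puf1, Puf2 and Puf5 on these genes were often overlapped by a site of another library. Of the Puf1 sites on these genes, 13 of 14 were overlapped by at least 1 nt by a site of another library on the same strand, against 39.1% of all Puf1 sites in mRNA. In Puf5 it was 15 of 18, against 20.8%, and in Puf2 19 of 34, against 32.8%. In Puf4 it was 3 of 8, against 20.8%, and in Puf6 0 of 2, against 24%. All 13 shared Puf1 sites overlapped Puf2 and 11 also overlapped Puf5. Of these 13 sites, 8 were on PMA1, 3 on ZEO1 and 2 on PMP2, all abundant mRNAs. The shares over all sites in mRNA take no account of mRNA level. RNase T1 was used on all lysates, so its part in shared ends was not tested. The sites of the 6 genes merged into 45 positions, of which 26 were called in 1 library, 8 in 2, 10 in 3 and 1 in 4.

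Among the 39 genes with a site in all 5 libraries, the 5 whose strongest sites had within-library percentiles nearest to those of PMA1 were MFA2, TDH3, HSP150, PDC1 and CCW12. Their mean difference from PMA1 over the 5 libraries was 7.97, 8.37, 8.56, 8.66 and 9.10 percentile points. The percentiles of PMA1 were 99.9 in Puf2, 99.8 in Puf1, 90.6 in Puf6, 87.9 in Puf5 and 74.7 in Puf4. As for PMA1, the lowest percentile of PDC1 (54.4) and of MFA2 (69.6) was in Puf4, whereas TDH3 was at 100 there.

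Genes that act with the pump were then counted, from lists of known function that were chosen with earlier results of these data known. The counts therefore cannot show whether such genes are called more often than others. Of 9 genes of Pma1 traffic and regulation, Puf5 had sites on 6 and Puf2 on 4, Puf1 and Puf4 on 1 each and Puf6 on 0, and each of the 9 had a site in some library, against 42.1% of all genes. Over all genes the shares were 25% in Puf5, 11.7% in Puf2, 5.81% in Puf1, 19.7% in Puf4 and 6.34% in Puf6. The strongest by RPM were GLC7, EXP1 and HRK1. GLC7, a protein phosphatase subunit, had 1610.1 RPM in Puf1 (rank 99 of 324 genes). EXP1, which aids export of Pma1 from the endoplasmic reticulum, had 922 RPM in Puf2 (rank 56 of 652). HRK1, a kinase that activates Pma1, had 407 RPM in Puf2 (rank 302 of 652). Of 12 other P-type ATPases, Puf5 had sites on 7, Puf4 on 2, Puf1 and Puf2 on 1 each and Puf6 on 0. This was 58.3% of the list in Puf5, against 25% of all genes, 16.7% in Puf4, against 19.7%, and 8.33% in both Puf1, against 5.81%, and Puf2, against 11.7%. By RPM, DNF1, a lipid flippase (890 RPM in Puf4), SPF1 (493 RPM in Puf5) and DRS2 (164 RPM in Puf5) were strongest. Within those libraries they ranked 191 of 1096, 149 of 1392 and 441 of 1392 genes.

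Of 15 subunit genes of the vacuolar proton pump, Puf4 had sites on 8, Puf5 on 4, Puf2 on 3, Puf6 on 2 and Puf1 on 1. The shares were 53.3% in Puf4 (19.7% of all genes), 20% in Puf2 (11.7%) and 13.3% in Puf6 (6.34%), while those of Puf5 (26.7%, against 25%) and Puf1 (6.67%, against 5.81%) were near the background. By RPM, VMA11 (1232 RPM in Puf1), STV1 (618 RPM in Puf4) and VMA1 (598 RPM in Puf2) were strongest. Within those libraries they ranked 176 of 324, 347 of 1096 and 230 of 652 genes. In Puf1 and Puf2 these were far below the strongest PMA1 site, and in Puf4 STV1 was nearer to it (759 RPM). In Puf6, VMA1 (84.3 RPM, rank 17 of 357) exceeded the strongest PMA1 site (78.5 RPM). Of 7 genes of cation transport and membrane potential, HAL4, a kinase gene (321 RPM in Puf5), and the sodium and proton antiporter gene NHA1 (74.9 RPM in Puf4 and 42.9 RPM in Puf6) had sites, which is 28.6% of the list in any library, against 42.1% of all genes. These counts are descriptions, and mRNA level was not considered in them.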

How the data were processed

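The authors deposited 1 list of called sites for each CLIP library, giving bounds, gene, class and RPM of every site. The submitters' processing notes name CASAVA 1.8.2, Bowtie 0.12.7 and the sacCer3 build. The site caller, the threshold and the reads that the RPM divides by are not given in the sources used here. The deposited RPKM column, made with Bowtie 0.12.7, joins 2 samples in a way that was not given, so it has no spread. Positions are printed as deposited and are good to 1 nt.

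Members and lists were chosen with earlier results of these data known. A gene had a site where a row classed as coding sequence, intron or UTR carried its name. The background was the 5521 protein-coding genes at 1 RPKM or more, matched by locus tag to RefSeq gene bounds (assembly R64), which hold no UTRs. ENA2 was not matched in the RPKM table. All members are named. For PMA1 the 5 most similar genes are named, and for each list at most the 3 strongest by RPM.

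Of mRNA sites under 60 RPM, 58.5% to 75.8% were whole multiples of a library-wide step (0.328 RPM in Puf2, 0.195 in Puf5, 0.167 in Puf1, 0.152 in Puf6 and 0.122 in Puf4), within 0.0055 RPM. For a step fixed in advance, chance would give 3.35% to 8.99%. Each step was instead chosen to fit the same values, only 33 of them in Puf1, so chance would give more than this. Read as the worth of 1 read, these steps put the depth between about 3050000 reads in Puf2 and 8170000 reads in Puf4. Since not all values were whole, no counting intervals were computed. The step finder and the overlap count were tested on simulated data. Python 3.11.15 and pandas 2.3.3 were used. Alternatives changed the RPM threshold, the naming of sites, the overlap, the total and the RPKM filter.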

Additional observations from a re-analysis of the deposited data

Results flagged for a closer look

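Sites that the authors gave to another gene or to none lay within 500 nt of a member on the same strand, outside the rows that the counts use. At PMP1 there were 9, all named YCR024C-B: at the start codon 3021.02 RPM in Puf1 and 4027.8 RPM in Puf2, further upstream 494.4 RPM in Puf4 and 178.94, 164.87 and 5.4 RPM in Puf5, and downstream of the stop codon 2035.73 RPM in Puf2, 210.01 RPM in Puf5 and 79.06 RPM in Puf4. YCR024C-B had 202 RPKM and PMP1 had 601 RPKM, and which mRNA the reads came from was not tested.

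At PMA1, sites with no gene name lay at 498 nt and more past the stop codon, with 1351.66 RPM in Puf1 and 117.99 RPM in Puf5. The Puf2 site of 14532 RPM, classed as 3' UTR of PMA1, covered the same bases. Upstream, a coding site of YGL007C-A, at identical bounds -324 to -301 nt from the PMA1 start codon, had 918.09 RPM in Puf4 and 763.45 RPM in Puf5. YGL007C-A was listed at 0 RPKM. Sites with no gene name also lay at -43 to -23 nt from the PMP2 start codon (101.38 RPM in Puf5), 297 to 315 nt past the PMP3 stop codon (557.31 RPM in Puf2) and 426 to 449 nt past the stop codon of SNA4 (977.09 RPM in Puf4), which had no site of its own.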

How the results depend on the processing

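By annotated gene bounds, which leave out UTRs, PMA1 sites numbered 1 in Puf1, 11 in Puf2 and 4 in Puf5. Over all libraries, PMP2 then had 2 sites (8 by name), ZEO1 5 (11), PMP3 1 (4) and SNA2 1 (2). With all sites within 500 nt, chosen after seeing the data, Puf4 had sites at 4 members. Over all libraries, PMP1 then had 11 sites (2 by name) and SNA4 had 1 (0). With 3' UTR sites alone, members with a site were 1 in Puf4 and 0 in Puf6. Among the upper 50% of sites by RPM, PMA1 kept 7 of 11 sites in Puf5. By summed RPM, PMA1 ranked 114 in Puf4, 58 in Puf5 and 10 in Puf6, and first in Puf1 and Puf2 as before. Its share was 11.5% of mRNA site RPM in Puf2, 8.71% in Puf1, 0.310% in Puf6, 0.291% in Puf5 and 0.184% in Puf4, and without rRNA, tRNA and Ty sites 10.6%, 8.09%, 0.118%, 0.265% and 0.175%. With an RPKM minimum of 500, also added later, the share of genes with a site rose to 71.6% (Puf4), 67.5% (Puf5), 58.8% (Puf2), 35.1% (Puf1) and 25.8% (Puf6). Shared positions and the 4 gene lists stayed within 1.5 times their values under the alternatives run for them. No paired analysis was possible because each protein had 1 library and the 2 mRNA-seq samples shared 1 column, so no replicate could be left out either. Motif searches in sites, planned as a description, and protein identities were not run, since no sequence was used here.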

Other observations

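Around PMA1 the authors' site numbers ran in order of position, and the lists used here skip some. Within PMA1, 4 numbers were skipped in Puf4, 2 in Puf2, 1 each in Puf1 and Puf5 and 0 in Puf6. What the skipped numbers stood for is unknown here. Over the whole lists, 642 of the numbers up to 1541 were not listed in Puf1 and 2687 of those up to 6048 in Puf5.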
